A study of Danio rerio with 2 samples.

Results

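Genes for subunits, assembly factors and regulators of the mitochondrial respiratory chain and the ATP synthase were compared between regenerating zebrafish hearts kept in atropine and in water. They were taken by the gene symbol that the array's annotation gives a probe set, as all symbols starting with nduf, sdh, uqcr, cox or atp5, which stand for complexes I, II, III, IV and V. The prefixes found 101 probe sets, among 15502 that are not controls, and 91 genes, among 8793 named ones. Complex I had 39 genes, complex II 7, complex III 7, complex IV 20 and complex V 18.

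The atropine group was a pool of 15 hearts from adult zebrafish that had lost about 20% of the ventricle at the apex and were exposed to atropine, which blocks muscarinic acetylcholine receptors. The water group was a pool of the same size, with the same amputation and exposure to water alone. Both were collected as whole hearts 24 hours after the operation, and each was measured on 1 Affymetrix expression array, so there is 1 array per group and no replicate. No test across samples is possible, and every difference below describes these 2 pools.

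The respiratory chain sits in the inner mitochondrial membrane. Complex I takes electrons from NADH and complex II from succinate, complex III passes them to cytochrome c and complex IV hands them to oxygen, while complexes I, III and IV pump protons out of the matrix. The ATP synthase, complex V, lets the protons back in and makes ATP. Heart muscle depends on this pathway for most of its energy. Most subunits are encoded in the nucleus, and the others in the mitochondrial genome.

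Values are deposited log2 signals, and a difference is the atropine value minus the water value on that scale, so that negative means lower in atropine. Where a gene had several probe sets, the one with the highest mean signal stands for it. Signals of different probe sets are not compared as amounts of RNA. Comparison required a signal of at least 4.05, the median of all values, on at least 1 array, and 90 of the 91 genes had it. The gene left out, sdhaf3, had 2.97 in atropine and 3.08 in water. The gene nearest the limit on the other side, ndufaf8, had 3.94 in atropine and 4.20 in water.

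Across both pools the respiratory chain genes were slightly lower in atropine, by amounts that were small for each gene and alike in direction for most of them. The median difference of the 90 genes was -0.15, a 1.11-fold lower signal, against a median of -0.01 over all 5294 named genes compared. Below 0 were 82 of the 90 genes, or 91.1%, where 52.0% of all named genes were below 0. At least 1.1-fold lower were 49 of them, or 54.4%, against a background of 28.3%. At least 1.1-fold higher was 1 gene, ndufa4b, against a background of 23.8%.

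Large differences were few. At least 1.2-fold lower were 10 of the 90, or 11.1%, which is near the background of 13.9%, and 0 were at least 1.2-fold higher, where the background was 10.5%. Just 1 gene, ndufaf4, was at least 1.5-fold apart in either direction, 1.11% of the 90 against a background of 3.99%. The standard deviation of the differences was 0.12 for the 90 genes and 0.27 for all named genes.

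**Figure D1:**
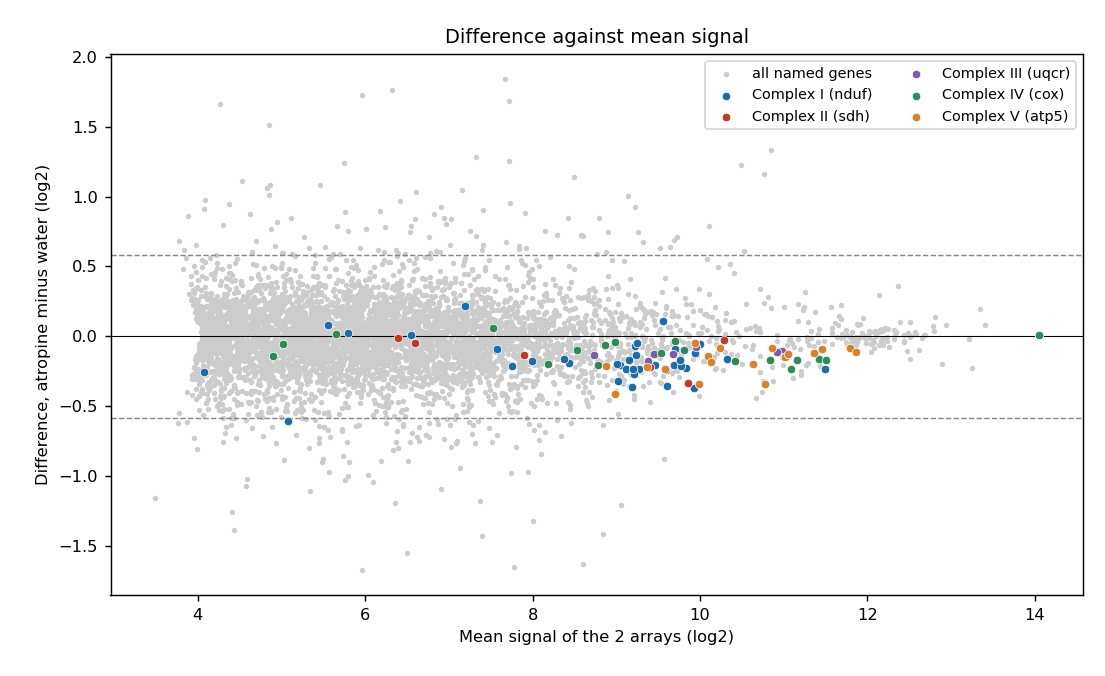
The difference, atropine minus water (log2, vertical axis), is plotted against the mean signal of the 2 arrays (log2, horizontal axis) for all 5294 named genes compared (grey) and for the 90 respiratory chain and ATP synthase genes (coloured by complex), with dashed lines at 1.5-fold. The coloured points lie mostly just below 0, and 1 of them, ndufaf4 at -0.61, is past a dashed line.

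Without replicates, the agreement of different probe sets for one gene gives only an error between probe sets on the same 2 arrays. Over 648 genes with 2 probe sets past the filter, the differences of the 2 scattered by a standard deviation that gives an error of 0.15 per probe set, and of 0.11 over the 210 genes whose probe sets both reached the upper quartile of signal. The spread between animals, or between pools, is not in this error. Larger than 0.15 were the differences of 46 of the 90 genes, and 9 were larger than 0.30, which is 2 errors. Most single genes below are therefore within about 2 errors of 0, and the shared direction is a statement about the group. How many of all named genes passed the same limits of 0.15 and 0.30 was not counted, so these counts set nothing apart in the group. Differences of all named genes spread more widely, with a standard deviation of 0.27 against 0.12 for the 90 genes.

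Signed difference and level of signal were hardly related. Across the 90 genes, difference and mean signal correlated at r = -0.08 (Spearman's rho = -0.05), which is a description over genes of the same 2 arrays. Among named genes at or above the upper quartile of 5.98, which holds most of the respiratory chain genes, the median was -0.02 over 2966 genes and 53.0% were below 0. The 83 respiratory chain genes whose mean reached that level had a median of -0.16, with 78 below 0.

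Complex I, the NADH dehydrogenase, had the lowest median of the 5 complexes, at -0.20 over 39 genes. Of these 34 were below 0 and 26 were at least 1.1-fold lower, against backgrounds of 52.0% and 28.3%. The same 26 genes, or 66.7%, lay below -0.16, the lower quartile of all named genes. The differences of its 33 subunits ran from -0.37 for ndufb5 to 0.22 for ndufa4b. This rank of complex I rests on the median. By mean, complex V was lowest at -0.176, with complex I at -0.172. Over subunits alone the means of complexes I, II and V were -0.174, -0.177 and -0.170. The difference between complex I and the other complexes was not tested.

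The core of complex I holds the flavin and the iron-sulfur clusters along which electrons run. Of its subunits ndufs1, which carries iron-sulfur clusters, had 9.07 in atropine and 9.34 in water, a difference of -0.27. The gene for the subunit that binds NADH and flavin, ndufv1, had 9.08 in atropine and 9.31 in water (-0.23). Its partner ndufv2 ran the other way on the probe set with the higher signal, at 9.62 in atropine and 9.51 in water (0.11), while its second probe set had 8.81 in atropine and 8.85 in water (-0.04). These 2 probe sets of ndufv2 disagree in sign, by no more than the error. The cluster-bearing subunits next along the electron path, ndufs7 and ndufs8a, differed by -0.17 and -0.16.

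Accessory subunits surround this core and hold the complex together. In all, 27 of 28 accessory genes were below 0, with a median of -0.20. The ndufb genes, whose products lie in the part of the membrane arm far from the flavin and iron-sulfur clusters, had a median of -0.22 over 8 genes, all below 0. Among them ndufb5 had 9.75 in atropine and 10.11 in water (-0.37), and ndufb2 had 9.01 in atropine and 9.37 in water (-0.36). At the other end of that family was ndufb8, with 9.98 in atropine and 10.03 in water (-0.05). The remaining ndufb genes, ndufb4, ndufb6, ndufb7, ndufb9 and ndufb10, lay between -0.24 for ndufb9 and -0.16 for ndufb4. A second probe set of ndufb6, at 2.74 in atropine and 2.82 in water, was below the level filter.

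The pair of ndufc genes, also of the membrane arm, stood at -0.36 for ndufc2, with 9.43 in atropine and 9.78 in water, and at -0.17 for ndufc1. Of the mitochondrial acyl carrier proteins, which belong to complex I and also serve fatty acid synthesis inside mitochondria, ndufab1b had 8.86 in atropine and 9.18 in water (-0.32). Its paralog ndufab1a was read by 3 probe sets, at -0.19, -0.24 and -0.10, each of which can take up related transcripts. All probe sets of this pair were lower in atropine.

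Among 13 ndufa genes 12 were below 0, with a median of -0.17. The one above 0 was ndufa4b, at 7.30 in atropine and 7.08 in water, a difference of 0.22 and the highest of all 90 genes. Its paralog ndufa4a had 11.37 in atropine and 11.60 in water (-0.23). The proteins of this pair were first assigned to complex I, and work on mammals later placed their counterpart with complex IV. The difference of ndufa4a minus that of ndufa4b was -0.45, against an error of 0.21 for the difference of 2 genes. That error is a standard deviation, which single pairs can pass without a real difference, and no pair was tested. Most of the family lay between -0.23 for ndufa6 and -0.12 for ndufa3, among them ndufa2, ndufa5, ndufa8, ndufa9a, ndufa10, ndufa11 and ndufa12, and only ndufa1 and ndufa13, at -0.09 each, came nearer to 0. A probe set shared by ndufa9b and ndufa9a, which the single-symbol rule leaves out, had 7.33 in atropine and 7.54 in water (-0.21). The remaining subunits ndufs4, ndufs5 and ndufs6 differed by -0.07, -0.21 and -0.05.

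Assembly factors, which help to build complex I and are not part of it, did not share 1 direction. Of 6 such genes 3 were below 0 and 3 above. The lowest, ndufaf4, had 4.78 in atropine and 5.38 in water, a difference of -0.61 or 1.52-fold, and it was the lowest of all 90 genes. It stood near the level filter, and with an offset of 16 added on the linear scale its difference was -0.41. Next were ndufaf8 at -0.26, with 3.94 in atropine below the filter and a difference of -0.13 with the same offset, and ndufaf1 at -0.21 on both of its probe sets. Above 0 were ndufaf2 (0.08), ndufaf5 (0.02) and ndufaf6 (0.01), which are within the error of 0.

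**Figure D2:**
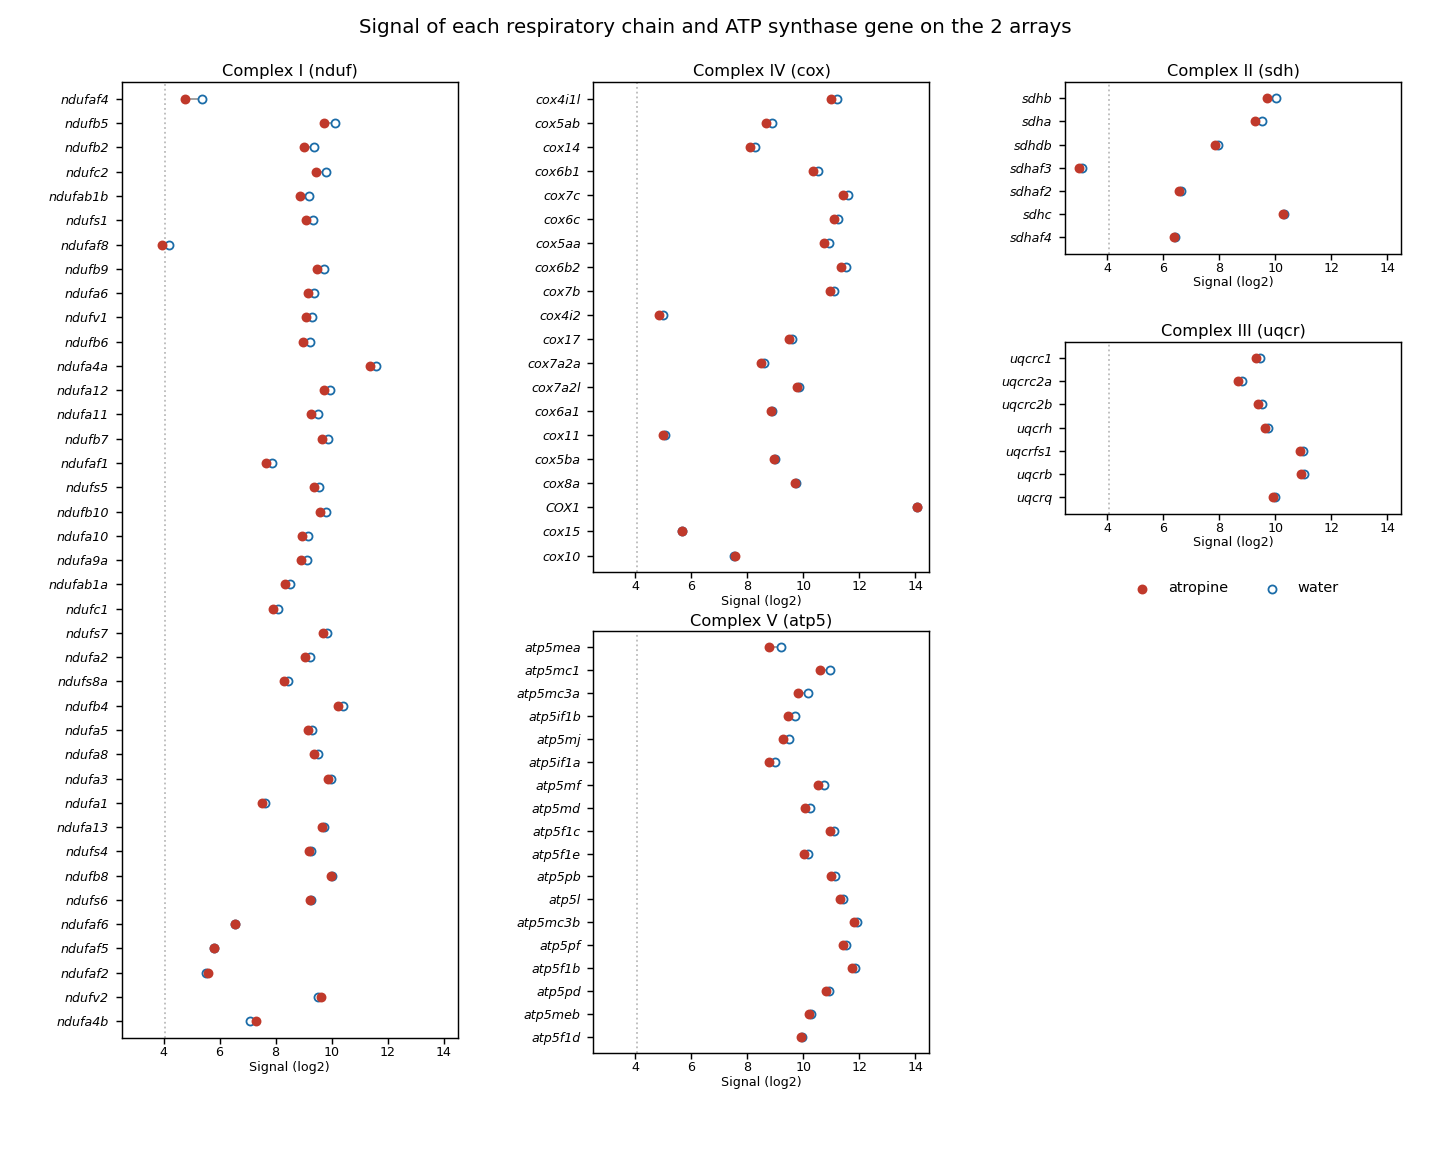
Signal of each of the 91 genes (log2, horizontal axis) in atropine (filled red) and water (open blue), by complex, with genes ordered from the lowest difference at the top to the highest at the bottom and a dotted line at the level filter of 4.05. In most rows the atropine point lies slightly left of the water point, and in the lowest rows of complexes I and IV the points coincide or change places.

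Complex II, succinate dehydrogenase, links the citric acid cycle to the chain and is the smallest of the complexes. The iron-sulfur subunit gene sdhb had 9.68 in atropine and 10.02 in water (-0.33), and the flavoprotein gene sdha had 9.29 in atropine and 9.51 in water (-0.22). Of the membrane anchors that bind quinone, sdhdb had 7.83 in atropine and 7.96 in water (-0.13) and sdhc had 10.27 in atropine and 10.30 in water (-0.02). Against the error of 0.21 for a difference of 2 genes, sdhb minus sdhc was -0.31, sdhb minus sdhdb -0.20, sdha minus sdhc -0.19 and sdha minus sdhdb -0.08. Of these 4 pairs of a catalytic subunit and an anchor, 1 is larger than this error. Over genes whose probe sets both reached the upper quartile of signal, the error for 2 genes is 0.16. The values of -0.20 and -0.19 are larger than that as well. Either error is a standard deviation and not a test.

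Assembly factors of complex II lay close to 0, sdhaf2 at -0.04 and sdhaf4 at -0.01, with sdhaf3 under the filter. All 6 complex II genes compared were below 0, with a median of -0.09. Over its 4 subunits alone the median was -0.18, so the value for complex II depends on whether assembly factors are counted with it.

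Complex III, the cytochrome bc1 complex, was lower in atropine by similar amounts in all of its 7 genes. Their differences lay between -0.17 and -0.08, around a median of -0.12, and their standard deviation of 0.03 was the smallest of the 5 complexes, a contrast that was not tested. The Rieske iron-sulfur protein gene uqcrfs1, which moves electrons toward cytochrome c, had 10.86 in atropine and 10.98 in water (-0.11). The core protein genes uqcrc1, uqcrc2a and uqcrc2b, which form the part facing the matrix, differed by -0.17, -0.13 and -0.12. The small subunit genes uqcrb, uqcrh, of the hinge protein, and uqcrq differed by -0.11, -0.12 and -0.08. A second probe set of uqcrc2a, at 2.84 in atropine and 2.74 in water, was below the filter. Of the 7, uqcrc1 alone was at least 1.1-fold lower, where 28.3% of all named genes were.

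Cytochrome c1, the remaining electron-carrying subunit of this complex with a nuclear gene, has a symbol of another form. Its gene cyc1 had 10.14 in atropine and 10.26 in water (-0.12), which is within the range of the uqcr genes. The gene for the mobile carrier cytochrome c, cycsb, had 10.57 in atropine and 10.66 in water (-0.09).

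Complex IV, cytochrome c oxidase, brings together a catalytic core from the mitochondrial genome and a shell of nuclear subunits. Only COX1, which encodes the core subunit with the haem and copper site where oxygen is reduced, stands for the mitochondrial genome among the 91 genes. Its probe set with the highest signal had 14.05 in atropine and 14.04 in water, a difference of 0.01. The other 2 probe sets had 13.06 in atropine and 12.99 in water (0.08), and 13.45 on both arrays. The value near 14 is the highest signal of all non-control probe sets on both arrays, and whether such signals are still proportional to RNA was not tested. COX1 was not lower in atropine on any of its 3 probe sets. The 14 nuclear subunit genes with the cox prefix were all below 0, with a median of -0.15. The COX1 probe sets ranked 1, 3 and 9 in atropine and 1, 3 and 11 in water. The sorted columns are nearly equal, so a probe set at the same top rank on both arrays can differ only slightly. With quantile normalization the COX1 difference was 0. The contrast with the nuclear subunits is therefore limited by the scale and was not tested.

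Nuclear subunits of complex IV, taken by the cox prefix, spanned a narrow range, from -0.24 to -0.04. The pair ndufa4a (-0.23) and ndufa4b (0.22), whose mammalian counterpart was placed with complex IV, is counted under complex I here. The regulatory subunit gene cox4i1l was lowest, with 10.97 in atropine and 11.20 in water. Its relative cox4i2, whose mammalian counterpart is known from lung and from low oxygen, differed by -0.14 at a lower signal, 4.83 in atropine and 4.97 in water. Paralogs stayed close to each other, as cox5aa (-0.17) and cox5ab (-0.20) did, and cox6b1 (-0.17) and cox6b2 (-0.16). The subunit genes cox6c, cox7b and cox7c differed by -0.17, -0.15 and -0.17. Nearer to 0 were cox7a2a and cox7a2l, the second of which is known in mammals for joining complexes III and IV, at -0.10 each, and cox6a1 at -0.06. The genes cox5ba and cox8a differed by -0.04 each. None of these 14 genes was at least 1.2-fold apart, where 13.9% of all named genes were that much lower and 10.5% higher.

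Assembly factors of complex IV, which insert copper and haem or steady the early intermediates, ran in both directions. The haem synthesis enzymes cox10 and cox15 were at 0.06 and 0.02. A second probe set of cox10 had 3.49 in atropine and 3.67 in water, under the filter. The copper carrier genes cox11 and cox17 were at -0.05 and -0.12, and cox14, whose product acts early in assembly, had 8.08 in atropine and 8.28 in water (-0.20). With 3 of 5 below 0 their median was -0.05. Over all 20 genes of complex IV the median was -0.13, with 17 below 0.

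Complex V, the ATP synthase, had all 18 genes below 0, with a median of -0.14 and differences from -0.41 to -0.05. The 4 genes of the catalytic head and central stalk had a median of -0.11. The beta subunit gene atp5f1b, of the catalytic site, had 11.75 in atropine and 11.83 in water (-0.08). The genes atp5f1c, atp5f1d and atp5f1e, of the central stalk that turns inside the head, differed by -0.15, -0.05 and -0.14. The alpha subunit gene atp5fa1 has a probe set that the annotation also gives to another gene, gcdha, so it is not among the 91. That probe set had 11.30 in atropine and 11.45 in water (-0.14).

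Genes of the proton-carrying c ring differed among themselves. In mammals the genes of this family encode the same ring protein behind different import signals. Of these atp5mc1 had 10.60 in atropine and 10.95 in water (-0.34), and atp5mc3a had 9.82 in atropine and 10.16 in water (-0.34). The third, atp5mc3b, had 11.81 in atropine and 11.92 in water (-0.11). The difference of atp5mc3a minus that of atp5mc3b was -0.23, which is near the error of 0.21 for 2 genes. Over genes at the upper quartile of signal that error is 0.16. Close relatives can share probe signal, and the pair was not tested.

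Subunits along the outer stalk and in the membrane were lower by unlike amounts. The peripheral stalk genes atp5pb, atp5pd and atp5pf, which keep the head from turning, differed by -0.12, -0.08 and -0.09. Of the small membrane subunits, some of which join ATP synthases into pairs, atp5mea had 8.78 in atropine and 9.19 in water, a difference of -0.41 or 1.33-fold, the second lowest of all 90 genes. Its paralog atp5meb had 10.20 in atropine and 10.28 in water (-0.08). The difference of atp5mea minus that of atp5meb was -0.33, against an error of 0.21 for 2 genes, which is a standard deviation and not a test. The genes atp5mj, atp5mf, atp5md and atp5l differed by -0.22, -0.20, -0.18 and -0.12, and a second probe set of atp5l, at 2.41 in atropine and 2.44 in water, was below the filter.

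The inhibitor of the synthase stops it from running backwards and burning ATP when the proton gradient fails. Its 2 genes stood close together, atp5if1b with 9.46 in atropine and 9.70 in water (-0.23) and atp5if1a with 8.77 in atropine and 8.98 in water (-0.21). They lay within the range of the subunits of the complex that they inhibit.

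**Figure D3:**
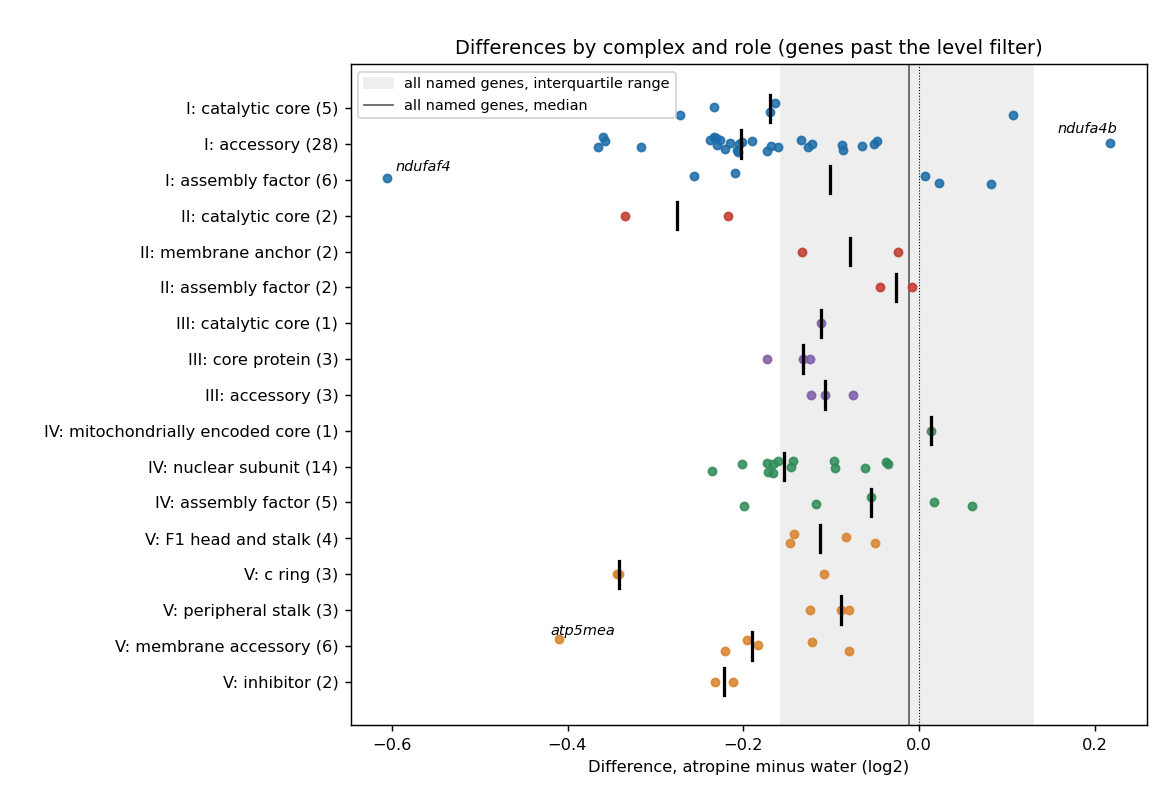
Differences, atropine minus water (log2, horizontal axis), of the 90 genes compared, by complex and role (rows, with the number of genes), with a black bar at each median, a grey line at the median of all named genes (-0.01) and a grey band over their interquartile range. Most subunit rows lie left of the grey line, while assembly factors of complexes I and IV and the mitochondrially encoded COX1 reach or cross 0.

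Set side by side by role, 74 nuclear subunit genes had a median of -0.16 with 72 below 0, or 97.3%. The 13 assembly factor genes with the 5 prefixes had a median of -0.04 with 8 below 0, or 61.5%. The background was 52.0%. The exceptions among nuclear subunits were ndufa4b and ndufv2. Assembly factors mostly had lower signals, and the 2 roles were not tested against each other. The median of -0.04 covers only assembly factors with the 5 prefixes. Of those with other names, surf1 (-0.32), uqcc3 (-0.29), atpaf2 (-0.27), tmem126a (-0.27), bcs1l (-0.20), uqcc1 (-0.19), coa6 (-0.07) and timmdc1 (-0.01) were lower in atropine. Higher were uqcc2 (0.0031), atpaf1 (0.10) and ecsit (0.12).

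Other genes of the pathway, from lists of names without the 5 prefixes, gave mixed values. Electron carriers, coenzyme Q synthesis enzymes and further assembly factors had a median of -0.13 over 29 genes, with 20 below 0. The one with the highest signal was cycsb, given above. The lowest were coq7, an enzyme of coenzyme Q synthesis, at -0.39 and etfa, of the electron transfer flavoprotein that feeds electrons from fatty acids, at -0.35. The highest was sqor, an enzyme that passes electrons from sulfide to coenzyme Q, with 7.37 in atropine and 6.44 in water (0.93), and next to it coq10b, a coenzyme Q binding protein, with 9.18 in atropine and 8.58 in water (0.60). Of the mitochondrial ribosome and import genes, by the prefixes mrpl, mrps, timm and tomm, 61 of 72 were below 0, with a median of -0.13, from mrpl40 (-0.54) to mrps30 (0.36). Citric acid cycle genes had a median of -0.05 over 19 genes, 13 of them below 0, with mdh1ab (-0.44) and idh3b (-0.29) lowest and suclg2 (0.05) and cs, citrate synthase, (0.18) highest. The one with the highest signal, idh2, was at -0.05.

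Carriers and regulators lay near the background. The 16 carrier and energy transfer genes had a median of -0.01, with 8 on each side of 0, from ckmt2a, a mitochondrial creatine kinase, at -0.45 to slc25a4, an ADP/ATP carrier, at 0.63, where 5.64 was read in atropine and 5.01 in water. The carrier gene slc25a12 was second lowest at -0.34, the uncoupling protein gene ucp3 second highest at 0.39, with ucp2 at 0.22, and the phosphate carrier gene slc25a3b, of the highest signal, at -0.06. Of 14 regulators of mitochondrial genes 8 were below 0, with a median of -0.02. Among them nrf1, tfam and gabpa, for factors that drive nuclear respiratory genes or the mitochondrial genome, were at 0.13, 0.04 and -0.12, and the coactivator genes ppargc1b and pprc1 at 0.14 and -0.21. The lowest were nrip1b (-0.39), with 4.20 in atropine and 4.59 in water, near the filter, and ssbp1 (-0.25). The highest were hif1al, of the hypoxia-inducible factor family, at 1.28 and yy1a at 0.45, and hif1ab, of the highest signal, was at -0.03.

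**Figure D4:**
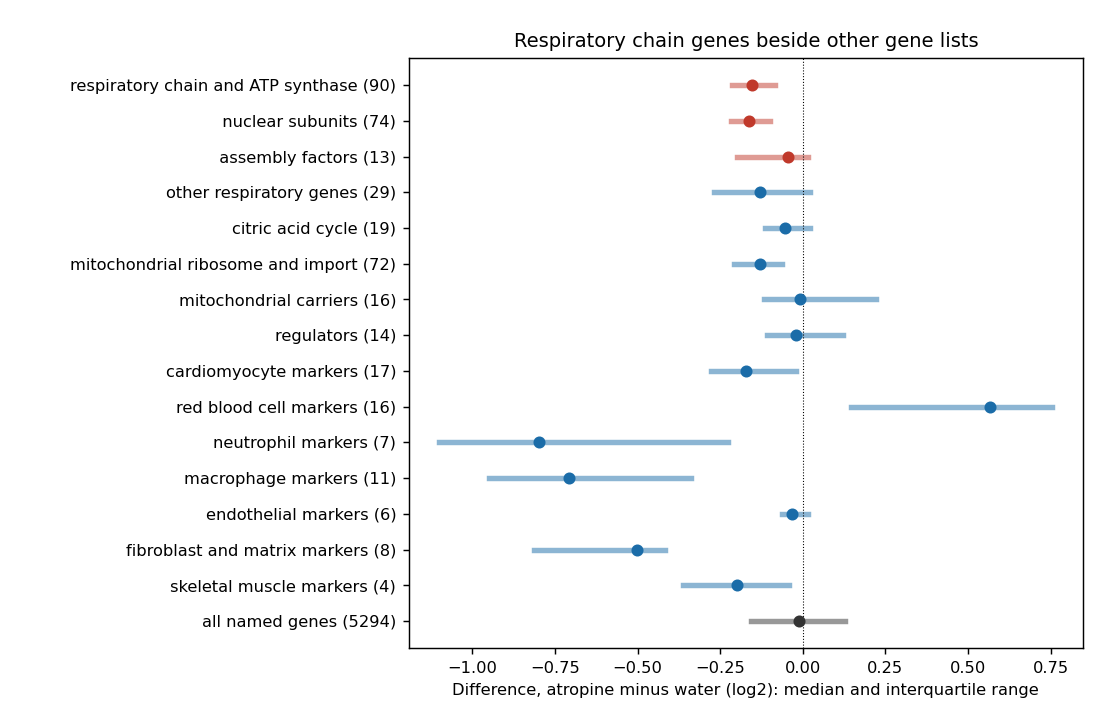
Median (points) and interquartile range (bars) of the difference, atropine minus water (log2, horizontal axis), for the respiratory chain genes (red), other mitochondrial gene lists and cell type markers (blue) and all named genes (black), with the number of genes compared. The respiratory chain median of -0.15 lies close to those of the mitochondrial ribosome list (-0.13) and the cardiomyocyte markers (-0.17), and the red blood cell markers lie on the other side of 0.

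Markers of cell types moved between the same 2 pools. As a check of the tissue, the heart muscle genes myl7 and tnnt2a, for cardiac myosin light chain and troponin T, had 13.21 and 12.53 in atropine and 13.23 and 12.52 in water, so their signals are high in both pools. The 17 cardiomyocyte markers compared, of 31 listed, had a median of -0.17, with 13 below 0, and their summed linear signal in atropine was 0.93 of that in water. They were unlike among themselves. Lowest were tnnc1a, for a troponin C, with 8.13 in atropine and 9.54 in water (-1.41), and myh7, for a myosin heavy chain, with 5.76 in atropine and 6.95 in water (-1.19). Highest were atp2a2a at 0.09 and desma at 0.01, and actc1a, of the highest signal, was at -0.23.

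The 16 red blood cell markers compared, of 26 listed, had a median of 0.57, with 12 above 0, and a summed signal 1.32 times that in water. The globin gene hbba2 was highest, with 11.52 in atropine and 10.18 in water (1.33), before klf1 at 0.88, while alad (-0.15) and hbae3 (-0.09) were lowest and the brightest, hbaa1, was at 0.20. Neutrophil, macrophage and fibroblast markers had medians of -0.80 over 7, -0.71 over 11 and -0.50 over 8 genes, endothelial ones -0.03 over 6 and skeletal muscle ones -0.20 over 4. Among neutrophil markers mmp9 (-1.43) and mmp13a (-1.20) were lowest, and srgn (0.16) and s100a10b (-0.0027), also the brightest, highest. Among macrophage markers these were cd74a (-1.63) and cd74b (-1.32), and csf1ra (0.10) and the brightest, grna.1 (-0.02). Fibroblast and matrix markers ran from fn1a (-1.55) and col1a2 (-0.98) to col5a2a (-0.31) and postnb (0.10), with the brightest, fn1b, at -0.50. Endothelial ones ran from tek (-0.26) and fli1rs (-0.07) to tie1 (0.03) and tal1 (0.85), with kdrl, the brightest, at -0.03. Skeletal muscle ones were ckmt2a (-0.45), actc1b (-0.33), acta1a (-0.07) and mb (0.03), the brightest. Of 19 skeletal muscle names listed, 15 had a probe set and only these 4 passed the filter. Those below it include mylpfa, atp2a1 and myod1, and ckmt2a is counted among the carriers as well. The median of these 4 is therefore no measure of skeletal muscle in the pools.

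In whole hearts, fewer cells of a type and less RNA per cell cannot be told apart, and the part of these shifts in the respiratory chain values was not tested.

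The scale also matters for the direction. Scaled to the cardiomyocyte markers, the median of the 90 genes was 0.02, while all named genes stood at 0.16. Below 0 were then 38 of the 90, or 42.2%, against 23.3% of all named genes. The 13 probe sets past the filter for polyadenylated control transcripts, which the manufacturer's scheme adds before labelling, had a median of -0.48. The 13 hybridization control probe sets past the filter, not used for scaling, had a median of -0.05. Scaled to the polyadenylated controls, the respiratory chain median was 0.32, beside 0.47 for all named genes. Below 0 was then 1 of the 90, or 1.11%, against 3.80% of all named genes. Scaled to the red blood cell markers, the respiratory chain median was -0.72, with all 90 genes below 0, beside -0.58 for all named genes. Nearly all named genes were then below 0 as well. In each of these scalings the respiratory chain median minus that of all named genes was -0.14, as a shift of all values must leave it. The direction is therefore one relative to the other genes on the array.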

How the data were processed

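RNA from pools of 15 hearts was labelled with the Affymetrix 3' IVT Express protocol, per the labels' protocols. The deposited table holds log2 values for 15617 probe sets, 115 of them controls, a scale inferred from their range (2.02 to 14.05). How they were normalized is not given in the sources used here. After sorting, the columns differed by at most 0.15, so their distributions are nearly but not fully equal. Scanner signals and detection calls were not used here, and having 1 array per group limits the precision.

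Names came from the array's annotation, and all 91 genes matched a RefSeq table of GRCz12tu by Entrez identifier. Probe sets with several symbols (135) or none (4572) did not count as genes. The members, lists and thresholds were chosen with earlier results of these data known. Differences and folds were computed on the deposited log2 values, with no test. The code recovered known shifts added to simulated data, which checks the computation and not how reliable the differences here are.

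Named genes are, per complex, those of highest signal and of lowest and highest difference, all at least 1.2-fold apart, all of complex II, core subunits, isoforms, assembly factors and genes with several probe sets, and from other lists the 2 lowest, the 2 highest and the brightest. Other members are given so that each is accounted for. The genes cyc1, ucp2, nrf1, tfam, gabpa, ppargc1b, pprc1, myl7, tnnt2a, mrpl40 and mrps30 were named after their values were seen. So were the assembly factor genes surf1, uqcc1, uqcc2, uqcc3, atpaf1, atpaf2, tmem126a, bcs1l, coa6, timmdc1 and ecsit. Of 13 mitochondrially encoded genes listed by mt- names, 0 matched a symbol in that spelling. COX1 entered through its prefix.

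Alternatives covered centring, quantile normalization, loess on signal (span 0.4), 2 other filters, an offset of 16, probe set choice, 3 scalings and the choice of members. Leaving out COX1 and scaling to red blood cell markers were added after seeing the data. Software was Python 3.11.15 with numpy 2.4.6 and statsmodels 0.14.6, pandas 2.3.3, scipy 1.17.1 and matplotlib 3.10.9.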

Additional observations from a re-analysis of the deposited data

How the results depend on the processing

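Under the 8 alternatives of normalization, filter, offset and probe sets, the median of the respiratory chain genes stayed between -0.16 and -0.13 and between 90.0% and 94.0% were below 0. Over all named genes the medians lay between -0.02 and 0, and between 49.9% and 53.0% were below 0. The respiratory chain median minus that of all named genes lay between -0.147 and -0.125. RefSeq symbols gave the same genes, and leaving out COX1, chosen after seeing the data, gave -0.16. The loess fit made 2 genes, not 1, at least 1.1-fold higher. The single gene at least 1.5-fold apart, ndufaf4, left that class with the offset (0 genes), and none was in it with the upper quartile filter or subunits only (0 each), which leave ndufaf4 out. Subunits only moved complex II to -0.18. Scaling to the cardiomyocyte markers took their median of -0.17 from every value. The medians were 0.018 for the 90 genes, -0.029 for complex I, 0.082 for II, 0.049 for III, 0.041 for IV and 0.027 for V. This scaling left 38 genes below 0, 9 lower and 10 higher by 1.1-fold or more and 0 at least 1.5-fold apart. Scaling to the polyadenylated controls gave 0.325, 0.278, 0.39, 0.356, 0.348 and 0.334 in the same order, and left 1 gene below 0, 0 lower and 84 higher by 1.1-fold or more and 2 at least 1.5-fold apart. Scaling to the red blood cell markers, also chosen after seeing the data, gave -0.722, -0.769, -0.657, -0.690, -0.699 and -0.712, with 90 genes below 0, 90 lower and 0 higher by 1.1-fold or more and 81 at least 1.5-fold apart. These 3 scalings shift every value alike, by construction, those of all other named genes included. With the red blood cell scaling, nearly all named genes were below 0 as well. How many of all named genes passed the 1.1-fold and 1.5-fold limits after each shift was not counted. The counts under these scalings therefore describe the shift and set nothing apart in the respiratory chain genes. For single genes, no value moved by more than the error of 0.15 under the other alternatives, except ndufaf4 with the offset (-0.41), and the sign of sdhc turned with loess. No paired analysis was possible because each group has 1 array. Signals over background are not known, so genes near the filter, ndufaf4 and ndufaf8 among them, are the least certain.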
